A study of Mus musculus with 12 samples.

Results

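Alveolar capillaries of the mouse lung are built from aerocytes and general capillary (gCap) endothelial cells, and 10 genes that mark or act in these cells were followed across lung development. The genes were taken by symbol, and all 10 were found among the 16152 genes of the count table and among the 15994 genes tested. In the grouping used here, *Car4*, *Ednrb*, *Apln*, *Fibin*, *Tbx2* and *Tbx3* are called aerocyte genes, and *Aplnr*, *Gpihbp1*, *Plvap* and *Ptprb* gCap genes. Earlier work cited by the study places the specification of aerocytes just before birth. The names therefore label genes, not cells, at the embryonic time-points, and which cells read them there was not tested. The study sequenced RNA from whole lungs of wild-type C57BL/6 mice, females and males, at the embryonic time-points E15.5 and E18.5 and the postnatal time-points P5 and P8. There were 3 lungs per time-point, taken from the same litter, which gave 12 libraries, so that a difference between time-points and a difference between litters cannot be told apart, and the p-values below cover only the spread between litter mates. No lung was treated or carried a modified allele.

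Aerocytes are large, thin and branched capillary cells that face the airspace across a shared basement membrane with AT1 cells, and they are specialised for gas exchange. The gCap cells are smaller, can divide, and serve as the progenitors that maintain both capillary types. Apelin, the product of *Apln*, is secreted by aerocytes, and its receptor, the product of *Aplnr*, is carried by gCap cells, so the pair is a signal between neighbouring cells of the same capillary. Several of these genes are also read in other cells of the lung: *Tbx2* and *Tbx3* in mesenchyme, and *Ednrb* in mesenchymal cells. In whole-lung RNA, fewer cells of a type and less RNA per cell cannot be told apart.

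The libraries held between 41337443 and 53901957 counted reads. The lowest count of *Car4* in a library was 10, and that of any other of the 10 genes was 317 (*Gpihbp1*), so counting error is small for all of them except *Car4* before birth. Epithelial genes of the lung (*Epcam*, *Cdh1* and *Nkx2-1*) were read at all time-points, with summed means between 389 and 652 CPM, the reads of a gene over the mapped reads of its library on a common scale. RNA of thymus genes (*Rag1*, *Rag2*, *Ptcra*, *Dntt*, *Cd8b1* and *Themis*) was present in P8 replicates 1 and 2, at a sum of 134 and 266 CPM beside 9.58 CPM in P8 replicate 3, and at 17.6 CPM in E15.5 replicate 2. Leaving out these 3 libraries leaves P8 replicate 3 as the only P8 library, so P8 is then a single sample whose spread is taken from the other groups, and a lost call there follows in part from the smaller design. The counts of called genes given in the next paragraph were the same without them.

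Most of the change in these genes fell between E18.5 and P5. This interval spans birth and is longer than those on either side of it. No library was taken within it, so its changes cannot be placed before or after birth or read as rates. A call required an FDR under 0.05 in edgeR's quasi-likelihood test over all genes and a log2 fold change beyond 1 in either direction, and "rose" and "fell" are written of an FDR under 0.05. From E18.5 to P5, 6 of the 10 genes were called, all 6 of them higher at P5, beside 26.8% of all genes tested in either direction and 17.5% called higher. They were *Car4*, *Gpihbp1*, *Ptprb*, *Apln*, *Fibin* and *Plvap*. Of the remaining genes, *Tbx3* and *Tbx2* rose against all reads (and fell, as did most genes, relative to the endothelial genes described further on) and *Aplnr* and *Ednrb* fell, each by less than the fold change cutoff. All 10 were thus past the FDR threshold, beside 71.1% of all genes, and the median log2 fold change of the 10 was 1.25 beside -0.002 over all genes. Between E15.5 and E18.5 no gene of the 10 was called, beside 3.04% of all genes, with 5 past the FDR threshold alone (21.5% of all genes) and 6 at an unadjusted p under 0.05. Between P5 and P8 again none was called, beside 2.96% of all genes, with 2 past the FDR threshold alone (18% of all genes) and 5 at an unadjusted p under 0.05. DESeq2 also called none in these 2 intervals. Over the whole course from E15.5 to P8, 5 of the 10 were called, beside 32.3% of all genes, and 9 were past the FDR threshold alone, beside 76.3%, of which *Aplnr* missed it without the 3 libraries with thymus RNA (-0.31, edgeR FDR = 0.062).

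The CPM of single libraries gave the same picture. From E18.5 to P5 all P5 libraries lay above all E18.5 libraries for 7 of the 10 genes and below them for 2, and the libraries overlapped for *Tbx2*. Over all genes tested, 34.4% were separated upwards and 42.6% downwards, 77.1% in all. From E15.5 to E18.5 the libraries were separated for 3 genes upwards (*Ednrb*, *Gpihbp1* and *Ptprb*) and 1 downwards (*Apln*), beside 38.1% of all genes, and from P5 to P8 for 4 downwards (*Ednrb*, *Apln*, *Aplnr* and *Ptprb*), beside 37%. Adjacent intervals share the libraries of the time-point between them, so their values are not independent.

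**Figure D1:**
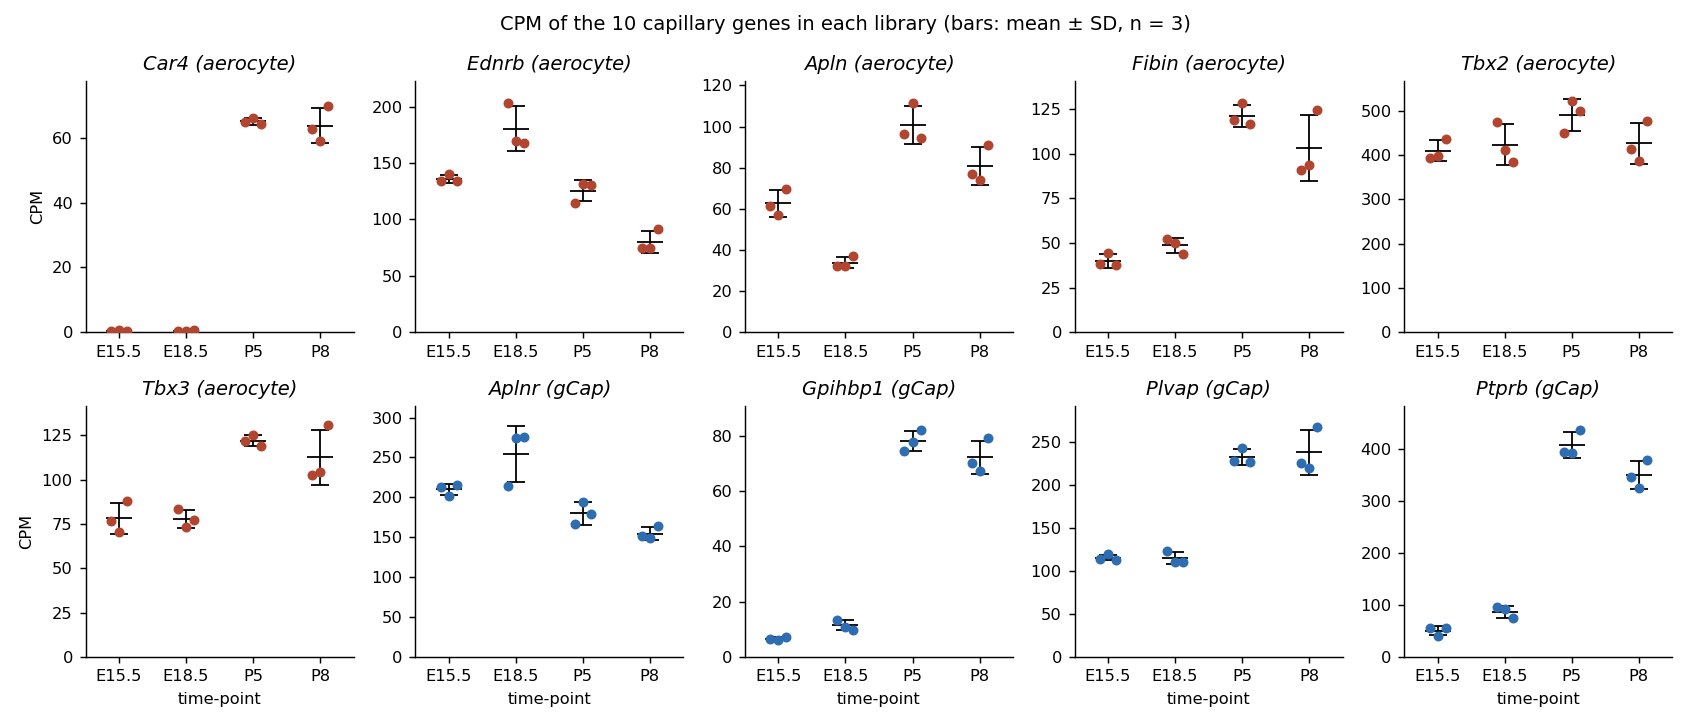
CPM (y axis, linear from 0) of each of the 10 genes in each of the 3 libraries of the 4 time-points (x axis), with red points for aerocyte genes, blue points for gCap genes and black bars for the mean ± SD. *Car4* went from under 1 CPM in all 6 embryonic libraries to between 58.9 and 69.7 CPM in the 6 postnatal ones, while *Ednrb* and *Aplnr* were highest at E18.5 and lowest at P8.

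*Car4* encodes a carbonic anhydrase anchored to the cell surface, which speeds the exchange of carbon dioxide and bicarbonate in blood, and it is the gene by which aerocytes are usually recognised (chr11:84957786-84966044 of mm10, plus strand). It was at 0.291, 0.570 and 0.236 CPM in the E15.5 libraries and at 0.205, 0.345 and 0.568 CPM in those of E18.5. At P5 it was at 65.0, 66.1 and 64.2 CPM, and at P8 at 62.8, 58.9 and 69.7 CPM. The embryonic libraries held between 10 and 31 *Car4* reads each and the postnatal ones between 3058 and 4241, and the groups on either side of birth did not overlap. From E18.5 to P5, *Car4* rose by 7.51 on the log2 scale, a 182-fold increase (standard error of the fit, SE, 0.234, edgeR FDR = 3.2e-10). No difference was detected from E15.5 to E18.5 (log2 fold change 0.07, SE 0.352, edgeR FDR = 0.91) or from P5 to P8 (-0.05, SE 0.152, edgeR FDR = 0.86).

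Of the other carbonic anhydrases, *Car8* had a step at the same interval. Of 11 further family members listed, 9 were tested, and from E18.5 to P5 *Car8* and *Car3* were called higher and *Car9* lower. In that interval 26.8% of all genes tested were called in either direction and 17.5% higher. *Car8*, a family member that lacks the catalytic activity, went from 16.4 ± 2.61 to 85.5 ± 2.20 CPM (SD, n = 3), a log2 fold change of 2.47 (edgeR FDR = 3.6e-09), and like *Car4* did not pass the threshold in the interval before or after (0.22 and -0.25, edgeR FDR = 0.17 and 0.12). *Car3*, which is abundant in fat and muscle, had the largest change (5.83, edgeR FDR = 0.0061) but ranged widely between libraries, with a mean of 28.4 ± 39.4 CPM at P5 and with 138, 217 and 7.33 CPM in P8 replicates 1, 2 and 3. *Car2*, the cytosolic enzyme that was the most abundant of the 9 in CPM, rose by 0.98 (edgeR FDR = 2.1e-07), just under the cutoff.

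*Apln*, the apelin gene (chrX:48025146-48034853, minus strand), was the only 1 of the 10 that fell from E15.5 to E18.5 and rose from E18.5 to P5. It was at 61.5, 56.9 and 69.8 CPM at E15.5 and at 32.0, 32.3 and 37.0 CPM at E18.5. The P5 libraries held 96.4, 111 and 94.5 CPM, and those of P8 held 76.9, 74.0 and 91.1 CPM. Every E18.5 library lay below every library of the other time-points. *Apln* fell by 0.89 on the log2 scale from E15.5 to E18.5 (SE 0.101, edgeR FDR = 4.7e-04), rose by 1.66 from E18.5 to P5 (SE 0.102, edgeR FDR = 3.3e-08), and was 0.44 higher at P8 than at E15.5 (SE 0.0997, edgeR FDR = 0.0015).

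*Aplnr*, the apelin receptor gene of gCap cells (chr2:85136225-85139923, plus strand), went the other way. It was at 213, 202 and 215 CPM at E15.5 and at 214, 274 and 276 CPM at E18.5, and after birth at 166, 195 and 179 CPM at P5 and at 151, 149 and 164 CPM at P8. The embryonic libraries were all above the postnatal ones, and the E15.5 and E18.5 libraries overlapped through E18.5 replicate 1. *Aplnr* fell by 0.42 from E18.5 to P5 (SE 0.0860, edgeR FDR = 8.5e-04), after a rise of 0.28 from E15.5 to E18.5 (SE 0.0859, edgeR FDR = 0.035) that was lost in 7 alternatives, 5 of which left out single libraries of E15.5 or E18.5 (edgeR FDR between 0.051 and 0.13 over the 7). Within a library, the ratio of *Apln* to *Aplnr* in CPM per kb of exon was 0.350 ± 0.0272 (SD, n = 3) at E15.5 and 0.157 ± 0.0186 at E18.5, then 0.658 ± 0.0327 in the P5 libraries and 0.612 ± 0.0369 in those of P8. The ratio was lowest in the 3 libraries of E18.5 and highest in those of P5 and P8, which overlapped each other. For each of the first 2 steps an exact permutation test of 3 libraries against 3, two-sided, gave its smallest possible p of 0.1, which cannot pass 0.05 (Benjamini-Hochberg adjusted p = 0.15 over 9 ratio comparisons). The other known apelin receptor ligand gene, *Apela*, was too low to be tested, with means between 0.182 and 0.288 CPM.

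RefSeq windows (GRCm38.p6) were at hand for 4 of the 10 genes, *Car4*, *Ednrb*, *Apln* and *Fibin*. The 250 bases before the start are shown for *Car4* and *Apln*, which rose most of the 4 from E18.5 to P5. Their windows lie outside the annotated gene body of GENCODE M21. Capitals mark a match to a motif. The motifs searched, on both strands and without overlap between them, were CAGGAAG for ETS factors, which endothelial genes commonly use, GGTGTGA for T-box factors, ACGTG for the hypoxia response element and TATAAA for the TATA box, and in that order they occur in 10.8%, 3.33%, 16.6% and 12.4% of all 32851 RefSeq windows of the same length. The *Car4* window at chr11:84957504-84957753 (plus strand) held none of the 4, with a GC content of 56.4%. The *Apln* window at chrX:48034854-48035103 (minus strand) held 1 match, to the ETS letters on the opposite strand, with a GC content of 65.2% beside a median of 52.4% over all windows. A match in these letters is a description of the sequence, not a binding site.
Car4: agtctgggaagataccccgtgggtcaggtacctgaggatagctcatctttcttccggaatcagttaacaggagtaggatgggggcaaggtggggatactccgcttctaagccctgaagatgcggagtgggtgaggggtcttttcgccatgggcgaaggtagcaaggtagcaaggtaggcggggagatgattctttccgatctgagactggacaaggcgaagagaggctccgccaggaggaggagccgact
Apln: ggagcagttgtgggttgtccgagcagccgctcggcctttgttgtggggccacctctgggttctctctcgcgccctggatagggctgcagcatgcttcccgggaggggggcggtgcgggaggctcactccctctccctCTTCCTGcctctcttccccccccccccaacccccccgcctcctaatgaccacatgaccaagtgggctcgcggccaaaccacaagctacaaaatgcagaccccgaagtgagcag

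*Ednrb* encodes the endothelin receptor type B, which in endothelial cells releases nitric oxide and clears endothelin from the blood (chr14:103814625-103844402, minus strand). It was the aerocyte gene that fell from E18.5 to P5 against all reads. It was at 134, 140 and 134 CPM at E15.5 and at 203, 170 and 168 CPM at E18.5. At P5 it was at 115, 131 and 130 CPM, and at P8 at 74.4, 74.7 and 91.6 CPM. All P5 libraries lay below all E18.5 libraries, and all P8 libraries below all P5 libraries. *Ednrb* rose by 0.41 from E15.5 to E18.5 (SE 0.0913, edgeR FDR = 0.0088), then fell by 0.44 to P5 (SE 0.0914, edgeR FDR = 8.6e-04) and by 0.66 to P8 (SE 0.0919, edgeR FDR = 0.0016). From E18.5 to P8 the decrease of 1.10 was called (SE 0.0924, edgeR FDR = 3.7e-07), beside 9.38% of all genes called lower (29% in either direction, and 7 of the 10 genes), and it kept this call in 18 of 20 alternatives. It fell just short of the cutoff without E18.5 replicate 1, and without the 3 libraries with thymus RNA it was 0.90. With P8 replicate 3 as the only P8 library, the decrease from P5 to P8 was 0.48 (edgeR FDR = 0.058).

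Mesenchymal cells also read *Ednrb*, and their genes moved in both directions from P5 to P8. Of 6 listed, *Col1a1* and *Col3a1*, which encode fibrillar collagens, rose by 0.96 and 0.60 (edgeR FDR = 0.0029 and 3.6e-04), and *Pdgfra*, *Tcf21* and *Tbx4* fell by 0.48, 0.45 and 0.31 (edgeR FDR = 0.0066, 0.024 and 0.039). For *Tbx4*, P8 replicates 1 and 2, those with thymus RNA, were at 182 and 175 CPM. P8 replicate 3 was at 237 CPM, inside the P5 range of 230 to 262 CPM. *Meox2* differed by -0.12 (edgeR FDR = 0.31), and the median of the 6 was -0.21. From E18.5 to P5 their median was 0.12, with 1 of 6 called higher, beside 17.5% of all genes. Their part in the *Ednrb* values was not tested.

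Of the 7 further genes of apelin and endothelin signalling listed, 5 were tested, and from E18.5 to P5 *Edn1* and *Ece1* were called higher and *Ece2* lower. Of all genes tested, 26.8% were called in either direction and 17.5% higher. *Edn1*, the endothelin-1 ligand gene, went from 10.9 ± 9.45 to 30.1 ± 1.74 CPM (SD, n = 3; log2 fold change 1.55, edgeR FDR = 0.0063), and *Ece1*, whose enzyme cuts the endothelin precursor, from 115 ± 2.98 to 270.4 ± 10.2 CPM (1.32, edgeR FDR = 1.5e-08). *Ednra*, the receptor type A gene of smooth muscle, fell by 0.52 (edgeR FDR = 7.4e-05) and *Edn3*, another ligand gene, by 0.62 (edgeR FDR = 9.8e-05). Relative to the pan-endothelial genes described further on, the list had none called higher and 3 lower, beside 7.27% of all genes called higher and 59.5% lower. On that scale *Edn1* was at 0.37 (edgeR FDR = 0.38) and *Ece1* at 0.12 (edgeR FDR = 0.081). The ratio of *Edn1* to *Ednrb* in CPM per kb was 0.0793 ± 0.0181 at E15.5 and 0.115 ± 0.0863 at E18.5, then 0.482 ± 0.0638 in the P5 libraries and 0.643 ± 0.0232 in those of P8. All 6 postnatal ratios were above all 6 embryonic ones, and 1 embryonic library, E18.5 replicate 1, stood at 0.214 beside 0.0665 and 0.0630 in the others of its group. The exact permutation p was 0.8 from E15.5 to E18.5 and 0.1 for each later step (adjusted p = 0.8 and 0.15).

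*Fibin* encodes a secreted protein first described in fish fin development (chr2:110360917-110363183, minus strand). It was at 38.0, 44.5 and 37.4 CPM at E15.5 and at 52.0, 50.1 and 43.5 CPM at E18.5, and after birth at 119, 128 and 117 CPM at P5 and at 90.9, 93.9 and 124 CPM at P8. The embryonic and postnatal libraries did not overlap. It rose by 1.40 from E18.5 to P5 (SE 0.115, edgeR FDR = 3.2e-07), and differed by 0.29 in the interval before (edgeR FDR = 0.089) and by -0.25 in the interval after (edgeR FDR = 0.14).

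*Tbx2* and *Tbx3* encode closely related T-box transcription factors, which mostly repress their targets. *Tbx2* (chr11:85832551-85841948, plus strand) had the smallest change of the 10 from E18.5 to P5 against all reads. It was at 394, 398 and 437 CPM at E15.5 and at 475, 413 and 384 CPM at E18.5, and after birth at 450.5, 522 and 501 CPM at P5 and at 414, 387 and 478 CPM at P8. Libraries of all 4 time-points overlapped with those of the adjacent one. Its rise of 0.30 against all reads from E18.5 to P5 (SE 0.0974, edgeR FDR = 0.016), which was -0.89 relative to the pan-endothelial genes below, missed the FDR threshold without E18.5 replicate 2, E18.5 replicate 3 or P5 replicate 2 (edgeR FDR between 0.052 and 0.072).

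*Tbx3* (chr5:119670669-119684724, plus strand) was at 76.9, 70.4 and 87.8 CPM at E15.5 and at 83.3, 73.1 and 77.2 CPM at E18.5. It was at 122, 125 and 119 CPM at P5 and at 103, 104 and 131 CPM at P8. All postnatal libraries were above all embryonic ones. *Tbx3* rose by 0.73 against all reads from E18.5 to P5 (SE 0.0997, edgeR FDR = 2.8e-05), and relative to the pan-endothelial genes it was at -0.46. Its exons share 115 bases (1.74% of their length) with the antisense gene *Tbx3os1*, which had a mean of 8.25 CPM, and since strand-specific counting is not stated, reads there cannot be told apart. Of the 6 further T-box genes listed, 5 were tested, and from E18.5 to P5 *Tbx1* was called lower (-1.54, edgeR FDR = 1.1e-05), *Tbx5* fell by 0.48 (edgeR FDR = 0.0016), and *Tbx4*, *Tbx18* and *Tbx20* did not pass the threshold. Over all genes tested, 26.8% were called in either direction in that interval.

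Among the gCap genes, *Gpihbp1* rose most. It encodes the capillary protein that carries lipoprotein lipase across the endothelial cell and holds it in the lumen, where it frees fatty acids from circulating triglycerides (chr15:75596628-75599481, plus strand). It was at 6.36, 6.23 and 7.06 CPM at E15.5 and at 13.4, 10.97 and 9.78 CPM at E18.5, and after birth at 74.7, 77.9 and 82.0 CPM at P5 and at 70.3, 67.4 and 79.1 CPM at P8. Each step up to P5 separated the libraries without overlap. The log2 increase was 0.80 from E15.5 to E18.5 (SE 0.114, edgeR FDR = 0.0013) and then 2.87 up to P5 (SE 0.114, edgeR FDR = 1.6e-09), a 7.30-fold rise, and the P8 libraries overlapped those of P5 (-0.13, edgeR FDR = 0.41).

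Of 6 partners of *Gpihbp1* in lipid uptake, 5 were called higher from E18.5 to P5 against all reads, beside 17.5% of all genes. Relative to the pan-endothelial genes 2 were called higher, *Cd36* and *Fabp4* (7.27% of all genes), and 1 lower, *Lmf1* (59.5%). Against all reads *Lmf1*, which is needed for lipase folding, differed by -0.21 (edgeR FDR = 0.062). *Lpl*, the lipase gene itself, went from 31.8 ± 0.959 to 125 ± 16.2 CPM (log2 fold change 2.07, edgeR FDR = 1.1e-06), and *Cd36*, a fatty acid transporter gene, from 22.2 ± 6.96 to 568 ± 25.1 CPM (4.76, edgeR FDR = 3.7e-08). *Fabp4*, a fatty acid binding protein gene of capillaries and of fat cells, had the largest change of the list (5.56, edgeR FDR = 0.0030), with a wide spread at P5 (39.5 ± 48.5 CPM) and with 199, 375 and 11.9 CPM in P8 replicates 1, 2 and 3. *Gpihbp1* outpaced *Lpl*, and the ratio of *Lpl* to *Gpihbp1* in CPM per kb was 1.53 ± 0.321 at E15.5 and 0.692 ± 0.113 at E18.5, then 0.392 ± 0.0591 in the P5 libraries and 0.688 ± 0.262 in those of P8. The ratios of the first 3 time-points did not overlap, and those of P8 were 0.681 and 0.952 in the libraries with thymus RNA and 0.429 in replicate 3. The exact permutation p was 0.1 for each of the first 2 steps and 0.2 for the last (adjusted p = 0.15 and 0.225).

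*Ptprb* encodes VE-PTP, a phosphatase that holds down the activity of the angiopoietin receptor TIE2 and stabilises junctions between endothelial cells (chr10:116275523-116389535, plus strand). It was at 55.7, 40.7 and 55.5 CPM at E15.5 and at 96.4, 91.3 and 74.1 CPM at E18.5, and after birth at 396, 393 and 437 CPM at P5 and at 347, 325 and 380.3 CPM at P8. The libraries separated at every step, upwards to P5 and downwards from P5 to P8. *Ptprb* rose by 0.79 from E15.5 to E18.5 (SE 0.128, edgeR FDR = 0.0021) and then by 2.31 up to P5 (SE 0.132, edgeR FDR = 1.9e-08), a 4.97-fold increase, and differed by -0.24 from P5 to P8 (edgeR FDR = 0.21). Its substrates and their ligands moved less. *Tek*, the TIE2 gene, *Cdh5* and *Angpt2* were called higher from E18.5 to P5, at 1.19, 1.22 and 1.29 on the log2 scale (edgeR FDR of 4.4e-08, 9.6e-08 and 4.0e-06), beside 17.5% of all genes. *Tie1* and *Angpt1* rose by 0.73 and 0.58 against all reads (edgeR FDR = 6.3e-06 and 2.1e-04), which became -0.46 and -0.61 relative to the pan-endothelial genes. On that scale *Cdh5* and *Angpt2* were at 0.03 and 0.10 (edgeR FDR = 0.69 and 0.54), and none of the 5 genes was called. *Tek*, *Tie1* and *Cdh5* are themselves among the pan-endothelial genes.

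*Plvap* encodes the protein that forms the diaphragms of caveolae and of endothelial windows (chr8:71497765-71511752, minus strand). It was at 114, 119 and 113 CPM at E15.5 and at 123, 111 and 110.3 CPM at E18.5, and after birth at 228, 242 and 226 CPM at P5 and at 225, 219.9 and 267 CPM at P8. The embryonic libraries overlapped each other, as did the postnatal ones, with a gap between the 2 periods. Against all reads it rose by 1.10 from E18.5 to P5 (SE 0.0765, edgeR FDR = 8.1e-08), though relative to the pan-endothelial genes below it differed by -0.09, and this call held in all 21 alternatives, with log2 fold changes between 1.03 and 1.17. Of 6 caveola genes, all rose over this interval against all reads and 2 were called higher, beside 17.5% of all genes. The 2 were *Cav2* (1.71, edgeR FDR = 3.2e-08) and *Cavin2* (1.69, edgeR FDR = 6.5e-09), while *Cav1*, the main coat protein gene, rose by 0.79 (edgeR FDR = 2.6e-06). Relative to the pan-endothelial genes *Cav2* and *Cavin2* were at 0.52 and 0.50 (edgeR FDR = 9.5e-05 and 4.9e-05) and *Cav1* at -0.40. On that scale 2 of the 6 rose and 4 fell, and none was called.

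Endothelial RNA as a whole also increased from E18.5 to P5, so the 10 genes were set against it. The summed CPM of 12 pan-endothelial genes, none of them among the 10 (*Pecam1*, *Cdh5*, *Tie1*, *Tek*, *Erg*, *Emcn*, *Cldn5*, *Esam*, *Egfl7*, *Robo4*, *Eng* and *Tal1*), was 1267 ± 24.4 at E15.5 and 1583 ± 58.5 at E18.5, then 3410 ± 116 in the P5 libraries and 3074 ± 352 in those of P8 (SD, n = 3). All 12 rose from E18.5 to P5 and 8 were called, beside 17.5% of all genes called higher. The median log2 fold change of the 12 was 1.08, with the largest change in the tight junction gene *Cldn5* (2.24). The edgeR fit was repeated with the summed counts of these 12 genes as the library size. Under this scaling the median of all genes moved to -0.34 from E15.5 to E18.5, to -1.197 from E18.5 to P5 and to 0.18 from P5 to P8. A gene that kept its share of total RNA thus appears to fall from E18.5 to P5.

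Relative to the pan-endothelial genes, the 10 genes split from E18.5 to P5. *Car4*, *Gpihbp1* and *Ptprb* were called higher, by 6.31, 1.68 and 1.13 (SEs 0.281, 0.105 and 0.114, edgeR FDR of 3.4e-10, 2.7e-09 and 3.4e-07), beside 7.27% of all genes called higher. *Aplnr* and *Ednrb* were called lower, by -1.61 and -1.63 (SEs 0.105 and 0.0822, edgeR FDR of 4.0e-09 and 6.2e-10). Both also fell against all reads, by 0.42 and 0.44 (edgeR FDR = 8.5e-04 and 8.6e-04). Relative to the pan-endothelial genes 59.5% of all genes were called lower and 66.8% in either direction, with a median of -1.197. The 5 calls among the 10 genes held in all 15 alternatives of this scaling. *Apln* and *Fibin* rose by 0.46 and 0.21 (edgeR FDR = 3.7e-04 and 0.040), and *Plvap* differed by -0.09 (edgeR FDR = 0.21). *Tbx3* and *Tbx2*, which rose against all reads, fell on this scale by 0.46 and 0.89 (edgeR FDR = 9.8e-05 and 1.3e-07). The 12 pan-endothelial genes themselves ran from -0.86 (*Emcn*) to 1.04 (*Cldn5*) on this scale, and *Cldn5* was called higher. The values of *Apln*, *Fibin*, *Plvap* and *Tbx3* lie inside that range, and that of *Ptprb* is close to its upper end.

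**Figure D2:**
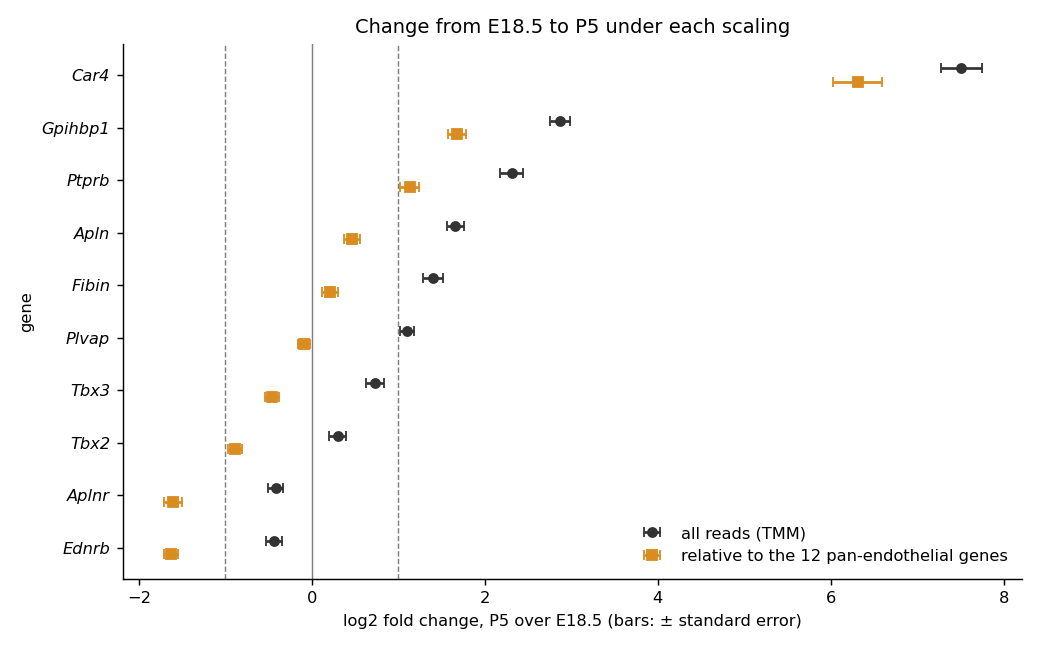
Change between E18.5 and P5 on the log2 scale (x axis, bars ± standard error of the edgeR fit) of each gene (y axis), against all reads with TMM (black circles) and relative to the 12 pan-endothelial genes (orange squares), with dashed lines at the cutoff of 1 in each direction. Every gene lies lower on the second scale, *Car4* by 6.31 in place of 7.51 and *Plvap* at -0.09 in place of 1.10, and *Tbx2*, *Tbx3* and *Plvap* change sign.

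Values per library show how even these proportions were. For each 1000 CPM of the pan-endothelial genes, *Car4* was at 0.229, 0.459 and 0.183 at E15.5 and at 0.127, 0.213 and 0.374 at E18.5, and after birth at 19.4, 18.6 and 19.2 at P5 and at 21.6, 20.8 and 20.04 at P8. *Plvap* was at 89.9, 95.9 and 87.4 at E15.5 and at 76.2, 68.3 and 72.8 at E18.5, and after birth at 68.0, 68.4 and 67.8 at P5 and at 77.4, 77.6 and 76.9 at P8. On this scale *Plvap* was highest at E15.5, fell by 0.33 from E15.5 to E18.5 (SE 0.0663, edgeR FDR = 0.0022), and its P5 libraries all lay below its P8 libraries. *Fibin*, also called against all reads, had means of 31.6 ± 3.72, 30.6 ± 1.78, 35.5 ± 0.593 and 33.4 ± 2.26 at the 4 time-points in order, within a narrow range at all 4. *Apln* had means of 49.4 ± 4.22, 21.4 ± 2.59, 29.5 ± 1.64 and 26.3 ± 0.157, so it was highest at E15.5, and its decrease to E18.5 was the only call among the 10 in that interval (-1.21, SE 0.0958, edgeR FDR = 1.1e-04), beside 4.84% of all genes called. *Ednrb* had means of 107 ± 4.78, 114 ± 10.99, 36.8 ± 2.40 and 26.1 ± 0.464, and from P5 to P8 it fell by 0.49 (SE 0.0806, edgeR FDR = 0.0024), the only 1 of the 10 past the FDR threshold there, beside 18.2% of all genes.

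**Figure D3:**
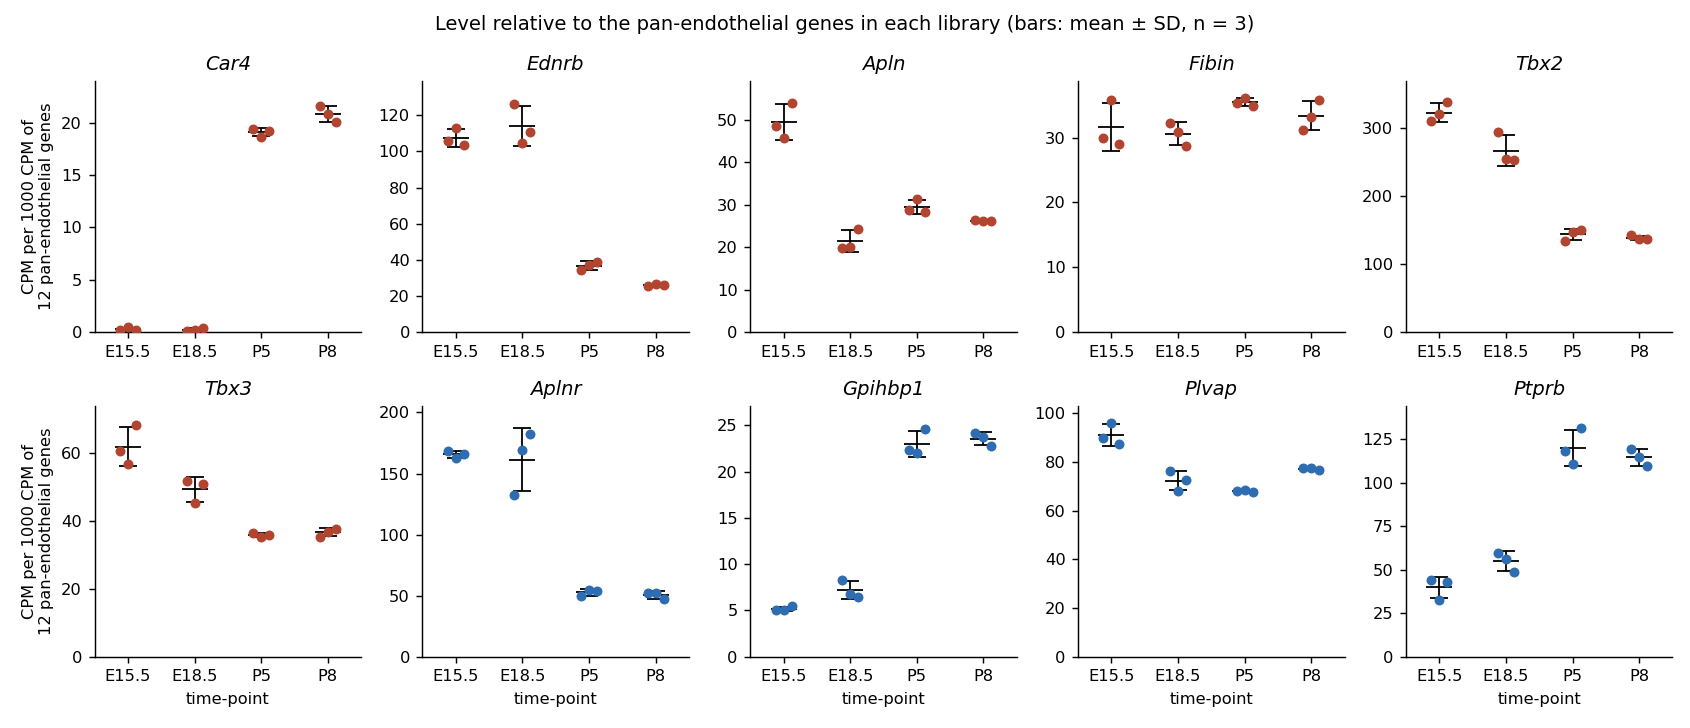
CPM of each gene per 1000 summed CPM of the 12 pan-endothelial genes (y axis, linear from 0) in each library of the 4 time-points (x axis), with red points for aerocyte genes, blue points for gCap genes and black bars for the mean ± SD. Between E18.5 and P5, *Car4*, *Gpihbp1* and *Ptprb* step up, *Ednrb*, *Aplnr* and *Tbx2* step down, and *Fibin* and *Plvap* keep nearly the same height. *Plvap* is higher at E15.5 than at E18.5.

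This scaling also bears on the spread at P8. In CPM, P8 replicate 3, the P8 library with little thymus RNA, was the highest P8 library for all 10 genes, and the coefficient of variation over the 3 P8 libraries had a median of 10.9% over the genes. Per 1000 CPM of the pan-endothelial genes it was the highest for 2 of the 10, and the median coefficient of variation was 3.14%. The sum of the pan-endothelial genes in the 3 P8 libraries was 2910, 2833 and 3478 CPM. Against this sum none of the 10 genes was called from P5 to P8, beside 4.42% of all genes. Some differences from P5 to P8 in CPM moved with the libraries kept. *Apln* fell by 0.34 (SE 0.0993, edgeR FDR = 0.037), and it missed the threshold in 7 alternatives, namely without E15.5 replicate 1, any 1 of the P5 libraries, P8 replicate 1 or P8 replicate 2 (edgeR FDR between 0.05 and 0.14), and at -0.17 with P8 replicate 3 as the only P8 library (edgeR FDR = 0.46). Without P8 replicate 3, *Fibin* and *Tbx2* were lower at P8 by -0.42 and -0.31 (edgeR FDR = 0.0096 and 0.044). *Car4*, *Fibin* and *Tbx3* differed by 0.07, 0.01 and 0.07 with P8 replicate 3 as the only P8 library, where they differed by -0.05, -0.25 and -0.13 with all libraries, and none of these 6 values was past the threshold.

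Levels of the genes can be compared with each other only per length. The length here is the union of exons over all annotated transcripts, so intron sequence kept in any of them lowers the value. For *Gpihbp1* the union is 2554 bases in 2 blocks, from 5 transcripts, and how much of it is such sequence was not examined. The order of the genes and the size of the ratios in CPM per kb depend on these lengths, and changes of 1 gene over time do not. In CPM per kb of exon, the order at E18.5 was *Tbx2* (117 ± 12.8), *Aplnr* (68.8 ± 9.55), *Plvap* (57.7 ± 3.63), *Ednrb* (42.3 ± 4.69), *Fibin* (21.4 ± 1.964), *Tbx3* (11.8 ± 0.782), *Apln* (10.7 ± 0.881), *Ptprb* (6.54 ± 0.876), *Gpihbp1* (4.45 ± 0.719) and *Car4* (0.190 ± 0.0930). The neighbours *Aplnr* and *Plvap*, and *Tbx3* and *Apln*, had overlapping libraries. At P5 the order was *Tbx2* (135 ± 10.2), *Plvap* (117 ± 4.49), *Fibin* (53.4 ± 2.70), *Aplnr* (48.6 ± 3.88), *Car4* (33.1 ± 0.489), *Apln* (32.0 ± 2.90), *Ptprb* (30.7 ± 1.86), *Gpihbp1* (30.6 ± 1.45), *Ednrb* (29.4 ± 2.18) and *Tbx3* (18.4 ± 0.462). From *Car4* down to *Ednrb*, each of these 5 genes was within the SD of its neighbour, so genes that had spanned 0.190 to 42.3 CPM per kb at E18.5 stood close together at P5. At P8 *Plvap* (119.5 ± 13.1) and *Tbx2* (118 ± 12.8) shared the top, and *Ednrb* (18.8 ± 2.32) and *Tbx3* (16.99 ± 2.38) shared the bottom of the order.

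**Figure D4:**
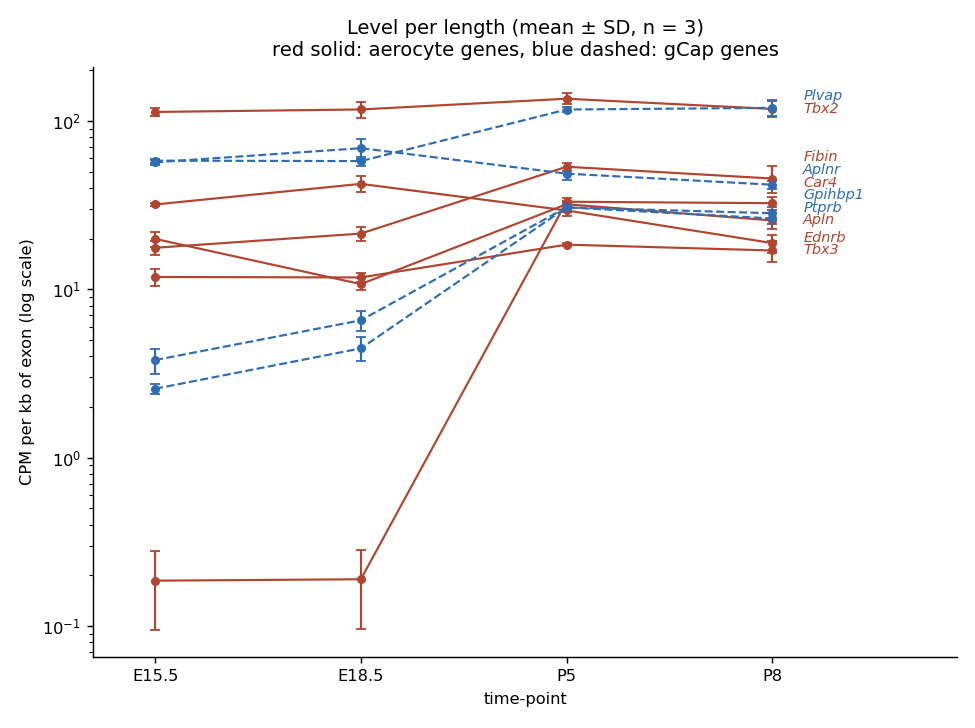
Mean CPM per kb of exon (y axis, log scale, bars ± SD, n = 3) of each gene over the 4 time-points (x axis), with red solid lines for aerocyte genes and blue dashed lines for gCap genes. *Car4*, *Gpihbp1*, *Ptprb* and *Apln* converge on *Ednrb* at P5, between 29.4 and 33.1 CPM per kb.

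Other genes reported for the same cells were listed with earlier results of these data known, so their counts are only a description. Beside them, 17.5% of all genes tested were called higher from E18.5 to P5, and 7.27% relative to the pan-endothelial genes. Of 10 further aerocyte genes (*Kdr*, *Kitl*, *Emp2*, *Chst1*, *Rprml*, *Cyp4b1*, *Prx*, *Cdkn2b*, *Nrp1* and *Cd34*), 9 were tested, and all 9 were called higher from E18.5 to P5, with a median log2 fold change of 2.28. The largest change was in *Cdkn2b*, a cell cycle inhibitor gene, from 1.76 ± 0.697 to 33.9 ± 0.935 CPM (4.36, edgeR FDR = 3.0e-08), and the smallest in *Nrp1*, a VEGF co-receptor gene (1.15, edgeR FDR = 1.9e-07). Relative to the pan-endothelial genes 5 of the 9 were called higher, and *Kdr*, the main VEGF receptor gene, differed by 0.10. *Emp2* and *Cyp4b1* are also read in lung epithelium. Of 8 further gCap genes (*Cd93*, *Sema3c*, *Cxcl12*, *Kit*, *Hilpda*, *Tmem100*, *Glp1r* and *Tek*), 6 were called higher, with a median of 1.22, and *Kit* and *Cxcl12* rose by 0.95 and 0.86 (edgeR FDR = 1.6e-05 and 7.0e-06), at -0.24 and -0.34 relative to the pan-endothelial genes. *Tmem100*, a BMP target gene, had the largest change of this list (3.66, edgeR FDR = 4.9e-09) and was the only 1 of the 8 called relative to the pan-endothelial genes (2.47). *Tek* is in this list and in the pan-endothelial list.

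Vessels other than capillaries and the epithelium that faces the aerocytes moved in the same interval. The share of all genes called higher there was 17.5% against all reads and 7.27% relative to the pan-endothelial genes. Of 6 arterial genes, 5 were called higher from E18.5 to P5, led by *Bmx* (2.68, edgeR FDR = 3.5e-04), and of 5 lymphatic genes 3 were, led by *Ccl21a* (1.67, edgeR FDR = 9.6e-06). Relative to the pan-endothelial genes 1 of the 6 arterial and none of the 5 lymphatic genes was called higher, nor was any of *Vegfa* and its receptors. Of 4 tested venous and large vessel genes, *Vwf* and *Slc6a2* were called higher against all reads (2.38 and 5.52), and *Nr2f2* and *Vcam1* fell by 0.43 and 0.73 (edgeR FDR = 3.9e-04 and 1.7e-06). Relative to the pan-endothelial genes 2 of these 4 were called higher, by up to 4.33, and 2 lower, beside 59.5% of all genes called lower. All 4 AT1 genes were called higher on both scales, and *Aqp5*, the water channel gene of AT1 cells, rose by 7.15 against all reads (edgeR FDR = 5.3e-10), close to the change of *Car4*. Of *Vegfa* and its receptors, *Vegfa*, *Kdr* and *Nrp1* were called higher, *Vegfa* by 1.53 (edgeR FDR = 9.3e-07), and *Flt1* rose by 0.96 (edgeR FDR = 3.0e-05). All 4 proliferation genes were called lower against all reads, by 1.16 (*Mki67*) to 1.65 (*Ccnb1*), beside 26.8% of all genes called in either direction. *Ptprc*, the gene of the leukocyte surface protein CD45, rose by 4.01 (edgeR FDR = 1.0e-07), and the part of these other cells in the values of the 10 genes was not tested.

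The genes most like each of the 10 were found by the Pearson correlation of log2(CPM + 1) over the 12 libraries. They were sought among 12148 genes with a mean of at least 5 CPM. The correlations are a description in which all points share the step between E18.5 and P5. *Car4* was most like *Rasgrf2*, *Aqp5* and *Spock2* (r = 0.999, 0.998 and 0.998), but 1389 genes reached r = 0.95 with it. *Gpihbp1* was most like the water channel gene *Aqp1*, *Sema3g* and *Rasgef1a* (0.998, 0.998 and 0.997), and *Fibin* most like *Ldb2*, *Ramp2* and *Serinc3* (0.997, 0.996 and 0.995). Profiles without a single step between E18.5 and P5 had few like genes. *Ednrb* was most like *Adcy2* (0.986), which went from 73.0 CPM at E18.5 to 41.3 at P8, and only 23 genes reached r = 0.95 with it. *Apln* was most like *Rassf1*, *Pisd* and *Enpp2* (0.970, 0.960 and 0.953), with 4 genes at r = 0.95 or more. *Tbx2* had none, and *Ehd3* was nearest to it (0.882).

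An intron event of *Ednrb* is among those that the study lists by gene, and since the study selected the event on these same libraries, it is described here without a test. The percent spliced in (PSI) is the share of corrected reads that were scored as inclusion of the intron. Where the reads of the event lay is given in the next paragraph. It was 53.2%, 64.0% and 68.2% at E15.5, 55.8%, 58.8% and 60.4% at E18.5, then 33.7%, 26.9% and 37.9% in the P5 libraries and 27.7%, 40.8% and 45.6% in those of P8. All embryonic libraries were above all postnatal ones. Between 164 and 314 corrected reads lay behind each value, and the widest 95% Wilson interval, which covers counting error only, was that of P8 replicate 2, from 34.1% to 47.8%. The position of the event in the genome is not given in the sources used here.

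The reads behind this PSI did not cover the intron evenly. In all 12 libraries between 71 and 232 reads crossed the boundary listed as downstream, and between 0 and 7 the one listed as upstream, with a median of 0. The intron body held between 0.2 and 3.2 corrected reads over 151 positions. On the scale of CPM, that is over mapped reads, the downstream boundary had 3.89 ± 0.418 reads at E15.5 and 4.20 ± 0.240 at E18.5, then 2.28 ± 0.532 in the P5 libraries and 1.81 ± 0.348 in those of P8, and the exon-exon junction 1.195 ± 0.319, 1.48 ± 0.125, 2.27 ± 0.129 and 1.46 ± 0.334. From E18.5 to P5 the junction reads were higher in all 3 libraries while the level of the gene was lower. Reads that start at one end only do not show a transcript that keeps the whole intron, and which transcript they come from was not tested.

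**Figure D5:**
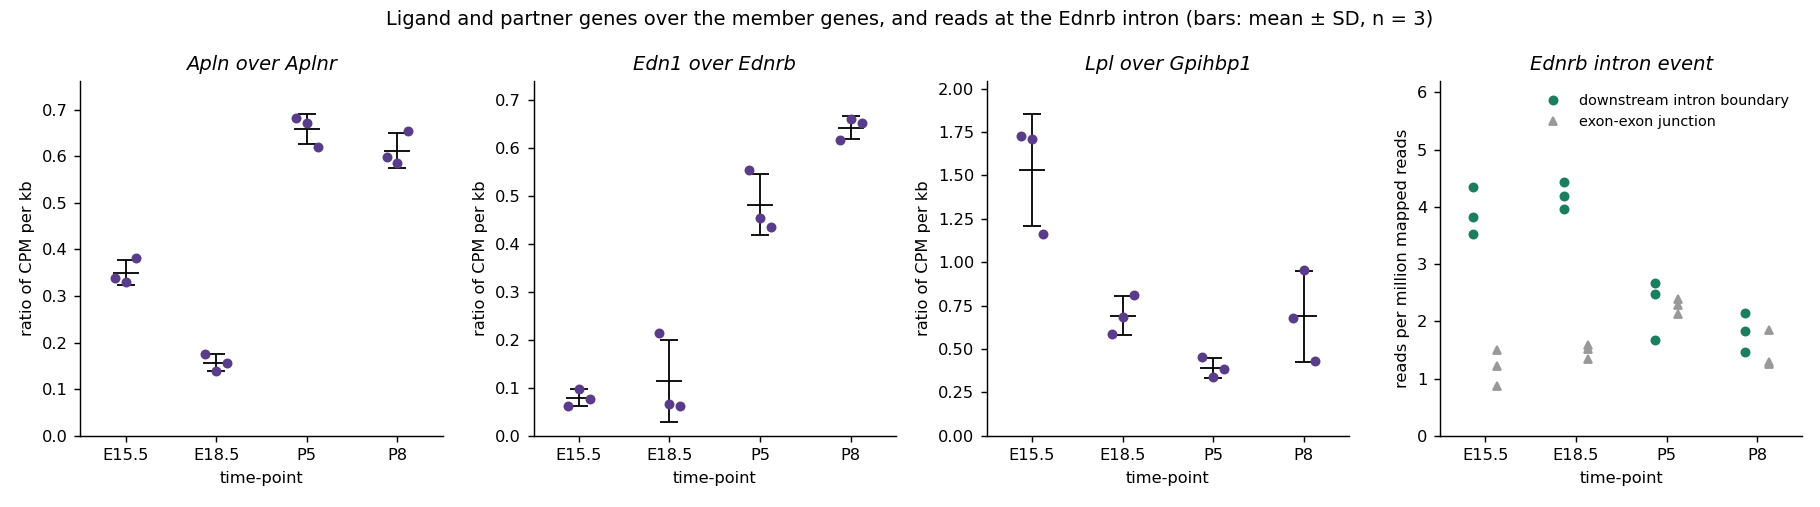
In the first 3 panels, the ratio of CPM per kb (y axis, linear from 0) of *Apln* to *Aplnr*, *Edn1* to *Ednrb* and *Lpl* to *Gpihbp1* in each library, with bars for the mean ± SD, and in the last panel the reads at the *Ednrb* intron event on the same scale as CPM, over the 4 time-points (x axis). *Apln* to *Aplnr* is lowest at E18.5 and *Edn1* to *Ednrb* highest at P8, and reads at the downstream boundary of the *Ednrb* intron (green circles) outnumber those of the exon-exon junction (grey triangles) in all embryonic libraries.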

How the data were processed

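Whole-lung RNA of 12 samples was sequenced as paired-end TruSeq libraries. Per the study's methods, the authors aligned reads to mm10 with TopHat2 2.1.1 and Bowtie2 2.3.4, counted them per Gencode gene with HTSeq 0.10.0, and deposited raw counts of 16152 genes, CPM (counts over mapped reads) of 51825 genes, and PSI in percent with the reads of each splicing event from VAST-TOOLS. The deposited CPM gave whole reads for 100% of values in each library (tolerance 0.01 reads).

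Counts were tested with edgeR 4.0.16 in R 4.3.3 (quasi-likelihood, TMM, 1 fit of 12 libraries) over the 15994 genes that reached 1 CPM in 3 or more libraries, with Benjamini-Hochberg adjustment over all of them. The same test on the recovered reads called 4376 of 16214 genes from E18.5 to P5. Exon lengths are the union of GENCODE M21 exons of mm10, and symbols were matched for 16136 gene IDs. The ratios of CPM per kb were compared by exact permutation. No library was a copy of another of the same time-point, and pairs across time-points were not compared. All 10 genes are described in each comparison, and from each related list the gene of largest change from E18.5 to P5 and others of known role. The script was tested on simulated data. The 10 genes and the gene lists were chosen with earlier results of these data known. Alternatives were other size factors, DESeq2 1.42.0, other filters, a replicate term, and leaving out libraries. A list of markers of other cells that read *Ednrb* is not reported here.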

Additional observations from a re-analysis of the deposited data

How the results depend on the processing

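The counts of called genes (0, 6, 0 and 5 of 10 from E15.5 to E18.5, E18.5 to P5, P5 to P8 and E15.5 to P8) were the same in every alternative that kept the fold change cutoff, and with an FDR under 0.05 alone they were 5, 10, 2 and 9. Relative to the pan-endothelial genes the counts (1, 5 and 0) were the same in all alternatives run. Changes of sign were small and none was past the threshold. From E15.5 to E18.5, *Plvap* and *Tbx3*, both at -0.00 in the main values, were at 0.01 and 0.01 with DESeq2 size factors in edgeR, with DESeq2 and with only the time-points compared, and at 0.00 with a minimum of 5 CPM. *Plvap* was at 0.02 without the 3 libraries with thymus RNA, an alternative chosen after seeing the data, and *Tbx3* at 0.00 with the replicate block. With single libraries left out, *Car4* ranged from -0.37 to 0.51, *Plvap* from -0.06 to 0.03, *Tbx2* from -0.04 to 0.13 and *Tbx3* from -0.07 to 0.09. From P5 to P8, *Car4*, *Fibin* and *Tbx3* were at 0.07, 0.01 and 0.07 without the libraries with thymus RNA, and with single libraries left out *Car4* ranged from -0.12 to 0.02 and *Plvap* from -0.08 to 0.08. The cause was not tested. From E15.5 to E18.5 *Car4* could not be fitted with only those time-points, since it is under the filter there.

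Replicate numbers did not pair the samples: the correlations of same-numbered deviations lay between -0.35 and 0.30, and not every sample correlated best with its own number. A replicate block left the counts at 0, 6, 0 and 5. The PSI difference of the *Ednrb* intron from E18.5 to P5 lay between -28.0 and -22.5 percentage points with single libraries left out, and a minimum of 100 reads on the event removed no library. With TMM-scaled deposited counts as the CPM denominator, 33 of the 40 mean levels moved by more than 1 SD and 7 did not. Depth limits *Car4* before birth, where a library holds 10 to 31 reads.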
